A study of Homo sapiens with 18 samples.

Results

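The data were read at the loci of 9 genes of transforming growth factor beta (TGF-beta) signalling, the receptors TGFBR1, TGFBR2 and TGFBR3, the ligands TGFB1 and TGFB2, the matrix protein TGFBI, the signal transducer SMAD3 and the inhibitors SMAD7 and SKIL. A region of open chromatin was a member if it overlapped the body of one of these genes, or the 20 kb on either side, in the GENCODE annotation on GRCh37 (hg19), which gave 90 of the 115087 regions in the deposited table. TGFBR3 held 20 of them, SMAD3 16, TGFB2 12, TGFBR2 11, TGFBI 9, TGFB1 7, SMAD7 6, SKIL 5 and TGFBR1 4. The measurement was ATAC-seq, in which the Tn5 transposase cuts DNA that is not covered by nucleosomes and tags it for sequencing, in 3 lines of human head and neck squamous cell carcinoma (HNSCC), SCC1, SCC6 and SCC25. Cells received 100 nM cetuximab, an antibody that blocks the epidermal growth factor receptor EGFR, every day for 5 days, or PBS as the untreated control over the same 5 days. There were 3 libraries for each line and treatment, apart from PBS-treated SCC1 with 2 (replicates 1 and 3), so that 17 libraries in 6 groups were read. Nothing in the sources used here says that replicates came from separate cultures, so the p-values measure the spread between these libraries. All groups are established cell lines, and neither RNA nor protein was measured in these files.

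TGF-beta ligands are secreted in a latent form, and once released they bind the receptor kinase TGFBR2, which recruits and activates TGFBR1. TGFBR1 then phosphorylates SMAD2 and SMAD3, which enter the nucleus with SMAD4 and act on enhancers and promoters, while TGFBR3 (betaglycan) presents ligand to the other receptors. In squamous epithelium this pathway is known for restraining growth, and in carcinoma cells for promoting epithelial-to-mesenchymal transition, a shift that the study followed under EGFR blockade.

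The signal is the number of reads in a region times a scaling factor for its library, with empty regions set to 1 read. The libraries held 2194851 to 15017130 reads in regions and 13035 to 101272 peaks. In SCC1 the cetuximab libraries held 2194851 to 3665345 reads and the PBS libraries 3577180 and 4171650. In SCC6 they held 5271491 to 15017130 and 4098164 to 7260488, and in SCC25 2513828 to 7385401 and 5509462 to 13408698. The ranges overlapped in each line. The part of depth in any difference was not tested. Among promoter regions of epithelial and squamous markers, the median signal over libraries was 101 at EPCAM, 63.8 at CDH1, 53.6 at KRT5, 32.6 at KRT14 and 29.2 at TP63. The lowest library was at 75.4, 42.4, 15.7, 1.01 and 14.5 in the same order, and 16, 14, 8, 6 and 6 of the 17 libraries had a peak there. The endothelial gene CDH5 and the leukocyte gene PTPRC had no promoter region in the table and the hepatocyte gene ALB no region. The signal of a region cannot tell a change in the number of cells with open chromatin from a change in how open it is per cell.

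Central stretches of 7 member regions are shown because results turn on these regions and because they hold a motif of a transcription factor. They were picked for holding one, so its presence here is no result. Sequences are GRCh37, + strand, 5′ to 3′, and capitals mark TGANTCA (the AP-1 site), CAGACA or its reverse complement TGTCTG (a SMAD site) or GCCNNNGGC (the TFAP2 site). The first 3 come from regions that were higher after cetuximab in SCC6.
TGFB2 intron chr1:218571193-218571492: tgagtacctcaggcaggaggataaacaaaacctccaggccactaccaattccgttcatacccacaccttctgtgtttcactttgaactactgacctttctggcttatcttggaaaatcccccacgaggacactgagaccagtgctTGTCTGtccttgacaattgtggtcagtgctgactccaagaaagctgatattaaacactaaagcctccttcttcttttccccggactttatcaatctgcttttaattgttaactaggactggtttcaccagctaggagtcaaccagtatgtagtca
TGFB1 downstream chr19:41802404-41802703: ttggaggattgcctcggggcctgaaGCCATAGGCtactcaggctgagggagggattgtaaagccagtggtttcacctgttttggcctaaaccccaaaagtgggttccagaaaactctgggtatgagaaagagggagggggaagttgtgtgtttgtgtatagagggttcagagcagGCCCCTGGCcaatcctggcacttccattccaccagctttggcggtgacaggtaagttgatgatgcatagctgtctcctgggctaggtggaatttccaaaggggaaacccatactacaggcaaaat
TGFBR3 intron chr1:92366217-92366516: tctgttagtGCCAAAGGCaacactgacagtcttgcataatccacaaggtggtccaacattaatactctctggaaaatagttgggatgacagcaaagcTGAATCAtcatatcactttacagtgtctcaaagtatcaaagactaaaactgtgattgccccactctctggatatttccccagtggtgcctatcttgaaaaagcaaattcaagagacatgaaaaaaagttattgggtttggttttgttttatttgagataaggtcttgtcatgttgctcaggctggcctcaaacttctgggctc
The next 4 come from regions that were lower after cetuximab, the first 3 of them in SCC1 and the last in SCC6.
TGFB2 downstream chr1:218636859-218637158: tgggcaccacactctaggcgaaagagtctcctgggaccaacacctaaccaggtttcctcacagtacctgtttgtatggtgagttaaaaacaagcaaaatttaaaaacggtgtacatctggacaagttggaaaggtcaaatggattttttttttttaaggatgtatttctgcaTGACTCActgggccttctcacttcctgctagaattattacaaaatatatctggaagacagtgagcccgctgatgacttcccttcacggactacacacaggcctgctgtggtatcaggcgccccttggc
TGFBI upstream chr5:135356127-135356426: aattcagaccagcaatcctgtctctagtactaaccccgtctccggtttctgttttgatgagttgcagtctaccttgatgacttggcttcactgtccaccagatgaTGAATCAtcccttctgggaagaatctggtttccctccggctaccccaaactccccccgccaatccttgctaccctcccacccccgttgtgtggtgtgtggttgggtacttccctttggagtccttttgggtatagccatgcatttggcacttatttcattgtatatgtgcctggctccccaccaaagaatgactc
TGFBR2 intron chr3:30723314-30723557: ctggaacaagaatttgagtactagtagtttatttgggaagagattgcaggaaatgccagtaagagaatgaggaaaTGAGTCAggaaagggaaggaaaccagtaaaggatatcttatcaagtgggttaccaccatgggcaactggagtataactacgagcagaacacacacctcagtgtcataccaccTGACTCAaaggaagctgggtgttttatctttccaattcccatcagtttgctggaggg
TGFBI intron chr5:135368317-135368519: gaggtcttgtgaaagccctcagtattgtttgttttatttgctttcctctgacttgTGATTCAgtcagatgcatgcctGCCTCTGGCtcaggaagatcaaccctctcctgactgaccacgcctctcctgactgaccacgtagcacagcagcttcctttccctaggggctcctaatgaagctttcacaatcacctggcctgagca

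The first question was which of these regions changed within 5 days of EGFR blockade. In SCC6, regions at TGFB2, TGFBR3, TGFB1, SMAD3, SKIL and SMAD7 opened, and fewer regions, at TGFBI, TGFB1, TGFBR1, TGFBR2 and TGFBR3, closed. In SCC1 the losses with the smallest adjusted p lay upstream of TGFBI and downstream of TGFB2. In SCC25 no member passed the test. limma called 19 of 72 tested members higher and 7 lower in SCC6 (adjusted p under 0.05), where 16.9% of all tested regions were called higher and 10.6% lower. In SCC1 it called 4 of 81 higher and 6 lower, against 4.57% and 6.56% of all regions. The share of members called in SCC1 was thus near that of all regions. In SCC25 limma called 0 of 83, against 0.0405% higher and 0.275% lower among all regions. There 9 members had an unadjusted p under 0.05, as did 11405 of all 86315 tested regions. The lowest adjusted p of a member was 0.142, and edgeR and DESeq2 on recovered reads also called 0 members. The SCC1 count of 10 fell to 4 without SCC1 PBS replicate 1 and to 6 without SCC1 PBS replicate 3, which each leave a single untreated library whose spread is taken to be that of the treated group. The calls were kept in all alternatives for 3 of the 10 in SCC1 and 15 of the 26 in SCC6.

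The median log2 change of tested members was 0.18 in SCC6 (all regions 0.11), -0.079 in SCC1 (all regions -0.091) and -0.059 in SCC25 (all regions -0.083). The balance of directions depended on how libraries were scaled. In SCC6, centring each library on its median gave 13 higher and 11 lower, with the median of all regions at -0.060. Quantile normalization gave 15 and 8, DESeq2 13 and 8, edgeR 16 and 8, and removal of the trend with GC content 24 and 2. Peak-free scaling, to the reads in regions that no library of the fit had a peak in, gave 30 and 2 with the median of all regions at 0.33. Of all 86315 tested regions, centring called 10394 higher and 15782 lower and quantile normalization 11366 and 12979. DESeq2 called 9287 and 9496 and edgeR 13118 and 11473. With the GC trend removed it was 13810 and 7606, and with peak-free scaling 26392 and 5260. In SCC1, centring gave 11 higher and 5 lower with the median of all regions at 0.097, and quantile normalization 7 and 5. Of all 86321 regions tested in SCC1, centring called 6852 higher and 3647 lower, and quantile normalization 5352 and 4896. In SCC25 peak-free scaling moved the median of all regions to -0.37 and called 18 of 83 members lower and 0 higher. The same scaling called 13491 of all 86315 tested regions lower and 106 higher. Every other scaling run called 0 members in SCC25.

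**Figure D1:**
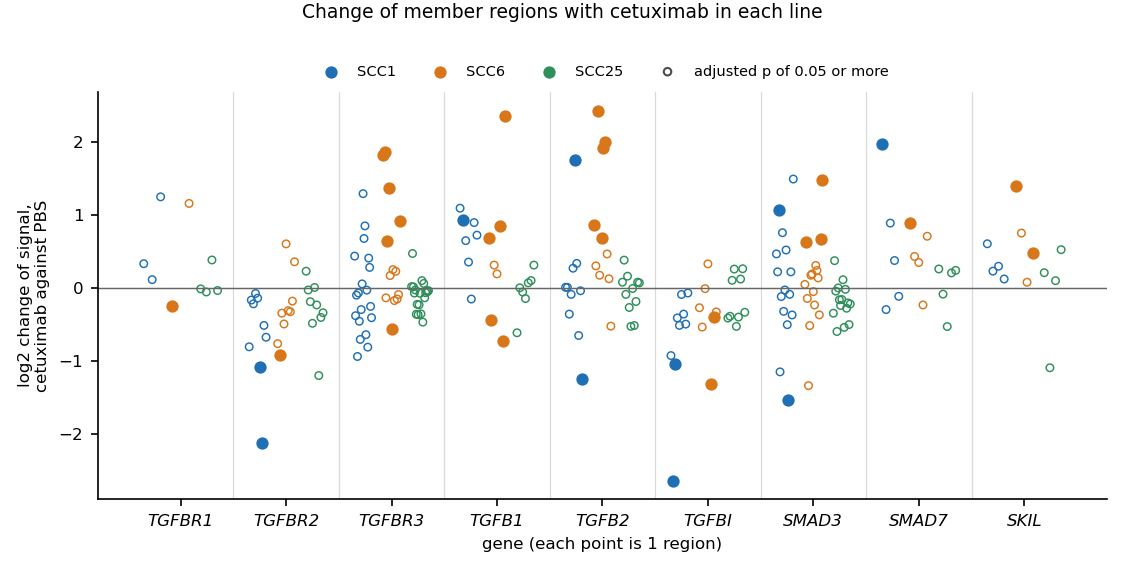
Log2 change of signal (vertical axis) with cetuximab for each tested member region, grouped by gene and coloured by line, with filled points for a limma adjusted p under 0.05. The filled SCC6 points at TGFB2 and SKIL are all above 0, the filled SCC1 points at TGFBI and TGFBR2 are all below 0, and no SCC25 point is filled.

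More members differed between untreated lines than changed with treatment, and this was also true of all regions. Over the whole table limma called 52827 (SCC6 against SCC1), 44291 (SCC25 against SCC1) and 59309 (SCC25 against SCC6) between PBS groups. With treatment it called 9613 in SCC1, 23774 in SCC6 and 272 in SCC25, in fits with fewer libraries. Among PBS libraries, TGFBR1 and most of TGFBR3 were more open in SCC25 than in the other lines, TGFBI was more open in SCC1, and much of TGFBR2 was less open in SCC25 than in SCC1 (flips under other scalings are given with each gene). limma called 23 of 82 members higher and 26 lower in SCC6 than in SCC1 (all regions 30.7% and 30.5%), 33 higher and 22 lower in SCC25 than in SCC1 (28.2% and 23.1%), and 35 higher and 17 lower in SCC25 than in SCC6 (36.7% and 32.1%). For SCC25 against SCC6 the split was 27 and 30 with the GC trend removed, 32 and 22 after quantile normalization and 58 and 5 with peak-free scaling (median of all regions from 0.062 to 0.97). For SCC6 against SCC1 it was 30 and 20 with the GC trend removed and 14 and 40 with that last scaling (median of all regions from -0.060 to -0.63). For SCC25 against SCC1 it was 35 and 15 with that scaling (median of all regions from -0.036 to 0.27), and centring moved the median of all regions to -0.27. Over all 86315 tested regions, peak-free scaling called 53432 higher and 13987 lower for SCC25 against SCC6. It called 18975 and 41826 for SCC6 against SCC1 and 31046 and 12592 for SCC25 against SCC1. With the GC trend removed, all regions gave 28702 and 31199 for SCC25 against SCC6 and 29741 and 22123 for SCC6 against SCC1. Quantile normalization gave 29876 and 30766 for SCC25 against SCC6. Leaving out 8 member regions of 195 to 205 bases, whose width is taken up with TGFBR2, left 44, 53 and 48 called members in these comparisons.

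Promoter regions were next read apart from the rest. Of the 19 member regions within 1 kb of a start site of their gene, limma called 1 of 18 tested higher and 2 lower in SCC1, 2 of 17 higher and 2 lower in SCC6, and 0 of 18 in SCC25, with 3 of those 18 at an unadjusted p under 0.05. Over all tested regions the shares called higher and lower were 4.57% and 6.56% in SCC1 and 16.9% and 10.6% in SCC6. In SCC25, 11405 of all 86315 tested regions had an unadjusted p under 0.05. The highest promoter signal over the 17 libraries was at SKIL (334 to 706), TGFBR1 (195 to 652) and TGFBR3 (106 to 354). TGFB1 had no region within 1 kb of its own start sites, the nearest lying 1484 bases away.

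**Figure D2:**
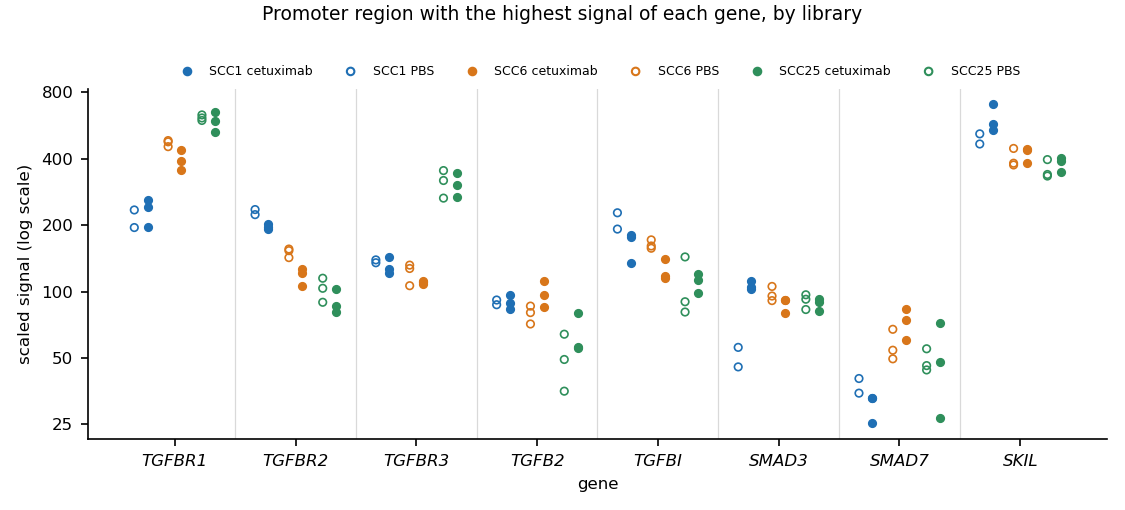
Scaled signal (log axis) of each library at the strongest promoter region of each of 8 genes, with open circles for PBS and filled circles for cetuximab. The 3 lines are set apart at TGFBR1, where SCC25 is highest, SCC25 alone stands apart at TGFBR3, and the largest gap between treated and untreated circles of one line is at SMAD3 in SCC1.

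TGFBR1, the type I receptor kinase, had 4 regions, and they separated the lines more than the treatments. The promoter region (chr9:101866864-101868034, over a coding exon) gave 195 and 234 in the PBS libraries of SCC1, 454, 478 and 484 in SCC6 and 633, 613 and 597 in SCC25. The 3 lines did not overlap, and SCC25 stood highest. SCC25 exceeded SCC1 (log2 difference 1.52 ± 0.092 (SE), limma adjusted p = 1.20e-08), and SCC6 lay between them, with a log2 difference to SCC1 of 1.14 ± 0.092 (limma adjusted p = 3.70e-08). All 3 regions tested between lines were higher in SCC25 than in either other line under each scaling run. The region at -17.7 kb from the gene start (chr9:101848340-101848818, upstream) gave 113, 80.05 and 104 in SCC25 but 1.30 and 4.47 in SCC1 and 1.21, 4.68 and 6.53 in SCC6 (limma adjusted p = 4.34e-06 and 9.31e-07). It had a peak in 5 of 6 SCC25 libraries and in none of the others. The SCC1 PBS libraries held 1 and 4 reads there and those of SCC6 held 1, 7 and 6.

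With treatment, the TGFBR1 promoter in SCC6 gave 358, 440.1 and 392 after cetuximab and 454, 478 and 484 with PBS. Each treated library was below each untreated one (log2 change -0.26 ± 0.084 (SE), limma adjusted p = 0.0186). The call was lost in 8 of 16 alternatives (adjusted p = 0.000169 to 0.831 over all). Leaving out SCC6 cetuximab replicates 1 and 3 and SCC6 PBS replicates 2 and 3 in turn ended it (adjusted p = 0.0524 to 0.143), and so did quantile normalization, removal of the GC trend, the block and GC correction together and peak-free scaling. With the GC trend removed the log2 change turned to 0.042. An intronic region at +12.2 kb (chr9:101878421-101878671) lay below the level for testing in SCC1 and SCC6 and gave 8.08, 9.28 and 15.9 after cetuximab and 1.21, 2.68 and 1.09 with PBS in SCC6. Each SCC1 library held 1 read there, the value set for empty regions, and the SCC6 PBS libraries held 1, 4 and 1 reads. A change in SCC1 could thus not be seen. The region passed the test for a different response between lines (limma adjusted p = 0.0127), a call lost in 5 of 27 alternatives (adjusted p = 0.000612 to 0.0873 over all). It did not hold without SCC6 cetuximab replicate 3 and SCC6 PBS replicates 1 and 3 in turn (adjusted p = 0.0509 to 0.0635), nor with edgeR and with DESeq2.

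TGFBR2, the type II receptor that binds ligand first, was most open at its promoter in SCC1. In this region (chr3:30647785-30648248, untranslated exon) the PBS libraries gave 235 and 223 in SCC1, 143, 156 and 153 in SCC6 and 115, 89.4 and 103 in SCC25. The lines did not overlap and SCC25 was lowest (log2 difference -1.16 ± 0.14 (SE), limma adjusted p = 7.81e-06, against SCC1). Over the gene, 8 of 10 tested regions were lower in SCC25 than in SCC1 and 0 were higher, and 4 were lower with peak-free scaling. Against SCC6, SCC25 had 1 higher and 3 lower, which turned to 5 higher and 1 lower with that scaling. A region over a coding exon at +16.7 kb (chr3:30664738-30664938) went the other way, with 48.3, 30.8 and 32.6 in SCC6 PBS libraries, 1.30 and 1.12 in SCC1 and 1.13, 0.721 and 0.848 in SCC25 (limma adjusted p = 6.48e-09 for SCC6 against SCC1). Only SCC6 had peaks there, in 5 of 6 libraries. The SCC1 PBS libraries held 1 and 1 reads there and those of SCC25 held 3, 1 and 1. At that level the size of the difference depends on the pseudocount. The region is 201 bases wide. Of the 90 members, 8 were 195 to 205 bases wide, and they included all 5 members with peaks in at least 5 SCC6 libraries and in no library of the other lines, at TGFBR2, TGFBR3, TGFB2, SMAD7 and SKIL. Over the whole table that width was found in 20.1% of regions, in 80.8% of those with peaks of SCC6 alone (5 or more libraries), in 4.48% of those of SCC1 alone (4 or more) and in 0.982% of those of SCC25 alone (5 or more). Widths were looked at after the members' values were seen, and their part in the differences between lines was not tested.

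In SCC1, 2 of 9 tested TGFBR2 regions fell after cetuximab and 0 rose. The intronic region at +75.3 kb (chr3:30723314-30723557), whose sequence holds TGAGTCA and TGACTCA, gave 8.88, 9.73 and 10.96 after cetuximab and 52.04 and 41.3 with PBS. Treated and untreated libraries were far apart (log2 change -2.13 ± 0.53 (SE), limma adjusted p = 0.00215). The region lies 602 bases from an internal start site of TGFBR2. The call was lost in 2 of 15 alternatives (adjusted p = 0.000386 to 0.216 over all). Without SCC1 PBS replicates 1 and 3 in turn it was gone (adjusted p = 0.081 to 0.216). A second intronic region, at +52.95 kb (chr3:30700795-30701292), gave 62.2, 52.6 and 35.99 after cetuximab and 109 and 100.5 with PBS (log2 change -1.08 ± 0.29 (SE), limma adjusted p = 0.00587), a call lost in 4 of 15 alternatives (adjusted p = 0.0021 to 0.17 over all). The omission of SCC1 cetuximab replicate 3 and SCC1 PBS replicates 1 and 3 in turn ended it (adjusted p = 0.055 to 0.17), and so did DESeq2. In SCC6 the called region was another one, at -9.17 kb from the start (chr3:30638734-30639116, upstream), with 38.4, 35.3 and 37.03 after cetuximab and 71.3, 62.9 and 78.3 with PBS. All treated libraries were below all untreated ones (log2 change -0.92 ± 0.23 (SE), limma adjusted p = 0.00168). In SCC1 the same region had a log2 change of -0.17 ± 0.27, and the difference between lines did not pass the test (limma adjusted p = 0.153). None of the TGFBR2 regions passed that test.

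TGFBR3, which encodes the co-receptor betaglycan, had the most regions. SCC25 was higher than SCC1 at 14 of 18 tested regions and lower at 0 (13 to 14 higher under the other scalings and tests), and higher than SCC6 at 16 with 1 lower (14 to 17 higher). The promoter region (chr1:92351342-92352015, untranslated exon, +20.2 kb) gave 354, 265 and 319 in SCC25 PBS libraries, 139 and 135 in SCC1 and 106, 132 and 127 in SCC6. SCC25 lay apart (log2 difference 1.17 ± 0.14 (SE), limma adjusted p = 8.83e-06, against SCC1), and the log2 difference of -0.18 ± 0.14 between SCC6 and SCC1 did not pass the test (limma adjusted p = 0.307). The difference was larger inside the gene. At +41.9 kb (chr1:92329693-92330362, an exon of a non-coding transcript) the signal was 365 ± 23.8 (SD, n = 3) in SCC25, 46.3 ± 10.3 (SD, n = 2) in SCC1 and 12.9 ± 4.50 (SD, n = 3) in SCC6, a log2 difference of 4.76 ± 0.22 between SCC25 and SCC6 (limma adjusted p = 2.36e-10).

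SCC6 was not low throughout TGFBR3. It was higher than SCC1 at 6 regions and lower at 7. At +33.6 kb (chr1:92337971-92338548, intron) SCC6 PBS libraries gave 71.3, 78.95 and 65.3, above SCC1 with 6.51 and 6.70, while SCC25 was higher still with 134, 133 and 117 (log2 difference of SCC6 to SCC1 3.26 ± 0.22, limma adjusted p = 4.76e-09). The intronic region at +134 kb (chr1:92237809-92238009) gave 62.8, 60.2 and 55.5 in SCC6, 6.41, 5.77 and 1.70 in SCC25 and 1.30 and 1.12 in SCC1, and had peaks in all 6 SCC6 libraries and in none of the other lines. It is 201 bases wide, one of the SCC6-only regions described with TGFBR2.

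**Figure D3:**
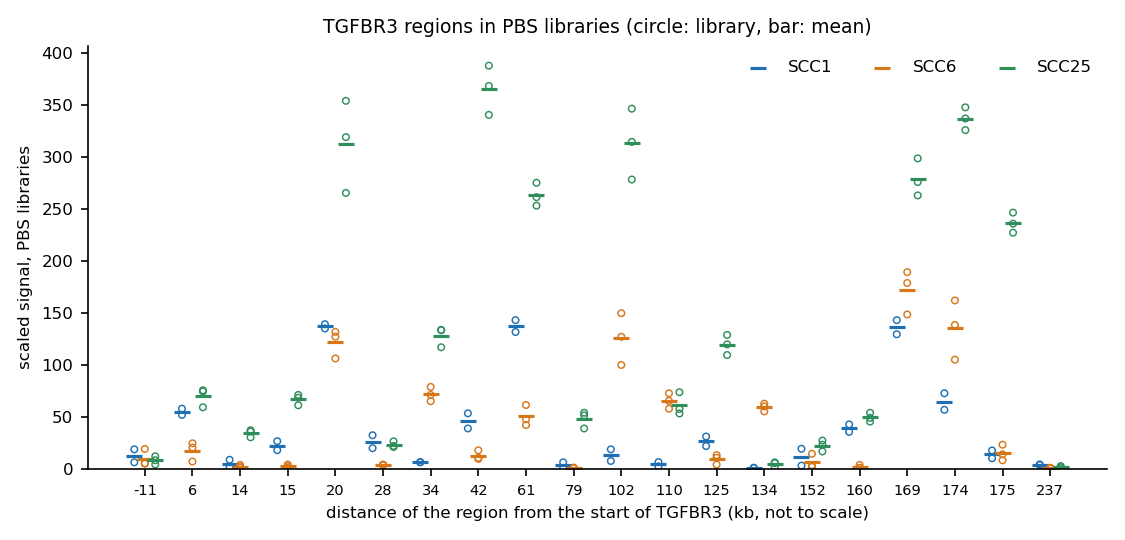
Scaled signal of the PBS libraries at the 20 TGFBR3 regions, ordered by distance from the gene start in kb (not to scale), with circles for libraries and bars for line means. SCC25 circles lie above those of both other lines at most regions, while SCC6 stands alone at the region near 134 kb.

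With cetuximab, 5 of 13 tested TGFBR3 regions rose in SCC6 and 1 fell, and 4 to 5 rose under each other scaling and test. The largest of these changes on the log2 scale was in an intron, at +5.53 kb (chr1:92366178-92366555), with 54.5, 61.3 and 63.1 after cetuximab and 7.25, 24.8 and 20.7 with PBS. Treated libraries were above all untreated ones (log2 change 1.86 ± 0.31 (SE), limma adjusted p = 9.65e-06). In SCC25 the same region gave 105, 98.3 and 86.8 after cetuximab and 74.6, 75.7 and 59.4 with PBS, also without overlap, yet its log2 change of 0.47 ± 0.18 did not pass the test (limma adjusted p = 0.261), and in SCC1 it gave 34.3, 42.8 and 50.1 after cetuximab and 52.04 and 58.1 with PBS (log2 change -0.38 ± 0.34 (SE), limma adjusted p = 0.533). The response differed between lines (limma adjusted p = 0.00234, 2.69e-05 to 0.0114 over 27 alternatives).

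The region upstream of TGFBR3 at -10.97 kb (chr1:92382735-92382980) gave 36.4, 26.00 and 35.4 after cetuximab and 19.3, 5.35 and 5.44 with PBS in SCC6 (log2 change 1.82 ± 0.39 (SE), limma adjusted p = 0.000343). At +41.9 kb, the region that was highest in SCC25, SCC6 gave 43.4, 23.2 and 37.4 after cetuximab and 10.9, 18.1 and 9.79 with PBS (log2 change 1.36 ± 0.34 (SE), limma adjusted p = 0.0019). SCC25 gave 254, 328 and 269 after cetuximab and 368, 340.4 and 388 with PBS there (log2 change -0.37 ± 0.11 (SE), limma adjusted p = 0.142), and the difference between lines passed the test (limma adjusted p = 0.00173, 5.73e-06 to 0.0111 over 27 alternatives). Even after cetuximab, each SCC6 library stayed far below each SCC25 library at this region. Smaller SCC6 gains were at +33.6 kb (log2 change 0.64 ± 0.18 (SE), limma adjusted p = 0.00483) and at +175 kb (log2 change 0.92 ± 0.35 (SE), limma adjusted p = 0.0444), the last of them a call lost in 10 of 16 alternatives (adjusted p = 0.00945 to 0.239 over all). Leaving out SCC6 cetuximab replicates 1, 2 and 3 and SCC6 PBS replicates 1 and 3 in turn ended it (adjusted p = 0.0522 to 0.219), and so did centring, quantile normalization, keeping low regions, edgeR and DESeq2. The single loss, at +102 kb (chr1:92270065-92270593, intron), gave 80.8, 94.7 and 75.4 after cetuximab and 149.8, 127 and 100.1 with PBS (log2 change -0.57 ± 0.17 (SE), limma adjusted p = 0.00953), a call lost in 4 of 16 alternatives (adjusted p = 0.000569 to 0.112 over all). It did not hold without SCC6 PBS replicate 1 (adjusted p = 0.0952), nor with the GC trend removed, with the block and GC correction together and with peak-free scaling. In SCC1 none of 19 tested TGFBR3 regions passed the test or had an unadjusted p under 0.05.

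TGFB1, the most widely expressed TGF-beta ligand, lies on chromosome 19 among other genes, and several of its member regions belong to neighbours as well. The region at -10.1 kb (chr19:41869683-41870233, upstream) covers start sites of B9D2 and TMEM91, the one at +43.7 kb (chr19:41815896-41816322) the start of CCDC97, and the one at +57.3 kb (chr19:41802346-41802761, downstream) lies nearest to the start of HNRNPUL1, 1634 bases away. In SCC6, 3 of 7 regions rose and 2 fell. With the GC trend removed it was 4 and 0, with peak-free scaling 3 and 0, and with the other scalings and tests 2 and 2. The largest gain was at +57.3 kb, with 37.4, 48.3 and 53.9 after cetuximab and 8.46, 8.70 and 7.61 with PBS. The untreated libraries were tightly grouped and far below the treated ones (log2 change 2.35 ± 0.33 (SE), limma adjusted p = 2.60e-07). Gains at +30.2 kb (log2 change 0.84 ± 0.22 (SE), limma adjusted p = 0.00238) and -14.03 kb (log2 change 0.68 ± 0.25 (SE), limma adjusted p = 0.0368) were smaller. The call of the second was lost in 8 of 16 alternatives (adjusted p = 0.00409 to 0.121 over all). Without SCC6 cetuximab replicates 1 and 2 and SCC6 PBS replicates 1 and 2 in turn it was gone (adjusted p = 0.0828 to 0.115), as it was on centring, after quantile normalization, with edgeR and with DESeq2. The 2 losses were at the shared promoters of CCDC97 (log2 change -0.74 ± 0.24 (SE), limma adjusted p = 0.0181) and of B9D2 and TMEM91 (log2 change -0.44 ± 0.14 (SE), limma adjusted p = 0.0124). The call at the CCDC97 promoter was lost in 5 of 16 alternatives (adjusted p = 0.00211 to 0.0924 over all). The omission of SCC6 cetuximab replicate 1 and SCC6 PBS replicate 3 in turn ended it (adjusted p = 0.0586 to 0.0924), and so did removal of the GC trend, the block and GC correction together and peak-free scaling.

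The B9D2 and TMEM91 promoter region moved in opposite directions in SCC1 and SCC6. In SCC6 it gave 114, 132 and 131 after cetuximab and 187, 165 and 161 with PBS. In SCC1 it gave 165, 81.8 and 82.9 after cetuximab and 67.7 and 43.5 with PBS (log2 change 0.92 ± 0.28 (SE), limma adjusted p = 0.0139). Treated and untreated libraries did not overlap in either line. The difference between lines passed the test (limma adjusted p = 0.0181). The call of a gain in SCC1 was lost in 3 of 15 alternatives (adjusted p = 0.00103 to 0.348 over all). Leaving out SCC1 cetuximab replicate 1 and SCC1 PBS replicate 3 in turn ended it (adjusted p = 0.292 to 0.348), and so did removal of the GC trend. The call of a loss in SCC6 was lost in 5 of 16 alternatives (adjusted p = 0.000695 to 0.276 over all). It did not hold without SCC6 cetuximab replicate 1 and SCC6 PBS replicate 1 in turn (adjusted p = 0.0578 to 0.0695), nor with the GC trend removed, with the block and GC correction together and with peak-free scaling. The difference between lines was lost in 4 of 27 alternatives (adjusted p = 0.000901 to 0.15 over all). Without SCC1 cetuximab replicate 1 and SCC1 PBS replicate 3 in turn it was gone (adjusted p = 0.0577 to 0.15), as it was with the GC trend removed and with peak-free scaling. Among PBS libraries, 4 of 6 tested TGFB1 regions were higher in SCC6 than in SCC1 and 0 lower (2 higher with peak-free scaling), led by this promoter region (171 ± 14.3 against 55.6 ± 17.05, log2 difference 1.63 ± 0.19 (SE), limma adjusted p = 2.08e-06). At -14.03 kb the response differed between lines in all 27 alternatives (limma adjusted p = 0.015, 0.000809 to 0.0466). Log2 changes there were 1.09 ± 0.46 in SCC1, 0.68 ± 0.25 in SCC6 and -0.62 ± 0.25 in SCC25, and only the SCC6 change passed its own test.

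TGFB2, a ligand that binds its receptors well only with the help of TGFBR3, held the largest gain after cetuximab among the members, a log2 change of 2.43 in SCC6. In SCC6, 5 of 10 tested regions rose and 0 fell, and 4 to 8 rose with 0 lower under each other scaling and test. An intronic region at +29.7 kb (chr1:218548060-218548654) gave 166, 176 and 166 after cetuximab and 35.04, 28.1 and 29.4 with PBS. Treated libraries lay far above untreated ones with little spread in either group (log2 change 2.43 ± 0.19 (SE), limma adjusted p = 5.13e-14, 9.65e-25 to 1.90e-09 over 16 alternatives). Another at +52.7 kb (chr1:218571082-218571602), whose central sequence holds TGTCTG, gave 168, 183 and 175 after cetuximab and 48.3, 38.8 and 42.4 with PBS (log2 change 2.00 ± 0.18 (SE), limma adjusted p = 1.37e-12). They had 3 and 5 SCC6 libraries with a peak and 0 SCC1 libraries with one.

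The other lines did not share these gains. At +29.7 kb SCC1 gave 13.96, 19.5 and 23.5 after cetuximab and 32.5 and 17.9 with PBS and SCC25 gave 49.2, 41.03 and 61.99 after cetuximab and 55.02, 43.99 and 62.8 with PBS, with overlapping groups in both lines. At +52.7 kb SCC1 gave 63.5, 64.2 and 43.8 after cetuximab and 37.7 and 52.5 with PBS. SCC25 gave 57.6, 91.2 and 83.2 after cetuximab and 118, 119.7 and 92.5 with PBS, where each treated library was below each untreated one but the log2 change of -0.52 ± 0.19 did not pass the test (limma adjusted p = 0.229). The test of the difference between lines gave its smallest adjusted p among the members at these regions (5.98e-06 at +52.7 kb and 1.50e-05 at +29.7 kb, limma), and both held in all 27 alternatives, with adjusted p up to 0.000441 and 0.00113.

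An intronic TGFB2 region between them, at +45.5 kb (chr1:218564074-218564292), rose in SCC1 as well as in SCC6. SCC6 gave 26.3, 38.1 and 24.1 after cetuximab and 3.62, 10.04 and 8.70 with PBS (log2 change 1.92 ± 0.40 (SE), limma adjusted p = 0.000247). SCC1 gave 36.8, 46.7 and 43.8 after cetuximab and 10.4 and 13.4 with PBS (log2 change 1.75 ± 0.45 (SE), limma adjusted p = 0.00311), without overlap, and the call was lost in 1 of 15 alternatives (adjusted p = 0.000653 to 0.0955 over all). The omission of SCC1 PBS replicate 1 ended it (adjusted p = 0.0955). In SCC25 the groups overlapped, with 9.84, 16.9 and 15.9 after cetuximab and 19.2, 16.6 and 8.48 with PBS. The difference between lines passed the test by a small margin (limma adjusted p = 0.0402), a call lost in 10 of 27 alternatives (adjusted p = 0.0024 to 0.127 over all). Leaving out SCC1 PBS replicate 1, SCC6 cetuximab replicates 1, 2 and 3, SCC6 PBS replicate 1, SCC25 cetuximab replicate 1 and SCC25 PBS replicates 1 and 2 in turn ended it (adjusted p = 0.0537 to 0.127), and so did removal of the GC trend and the block and GC correction together. Smaller SCC6 gains were at +35.2 kb (log2 change 0.67 ± 0.16 (SE), limma adjusted p = 0.00104) and at the weaker promoter region (chr1:218518327-218518818, untranslated exon, which TGFB2-AS1 also covers), with 57.6, 31.6 and 40.99 after cetuximab and 26.6, 25.4 and 17.4 with PBS (log2 change 0.86 ± 0.29 (SE), limma adjusted p = 0.0211). The promoter region with the highest signal (chr1:218518997-218519461) was not called in SCC6. It gave 97.0, 85.4 and 111 after cetuximab and 71.3, 80.3 and 85.9 with PBS, with overlap. The call at the weaker promoter region was lost in 5 of 16 alternatives (adjusted p = 0.00286 to 0.159 over all). It did not hold without SCC6 cetuximab replicate 1 and SCC6 PBS replicate 3 in turn (adjusted p = 0.108 to 0.159), nor on centring, after quantile normalization and with DESeq2.

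Downstream of TGFB2, at +118 kb (chr1:218636728-218637288, within LINC02869), accessibility fell in SCC1. The region, which holds TGACTCA, gave 60.9, 95.4 and 70.4 after cetuximab and 187 and 171 with PBS. Untreated libraries were well above treated ones (log2 change -1.26 ± 0.25 (SE), limma adjusted p = 5.67e-05, 2.39e-07 to 0.0268 over 15 alternatives, all of which kept the call). SCC1 was also the line in which this region was most open, with PBS means of 179 ± 11.7 in SCC1, 38.6 ± 2.85 in SCC25 and 21.2 ± 4.17 in SCC6 (log2 difference -3.04 ± 0.24 (SE), limma adjusted p = 3.10e-08, SCC6 against SCC1). The difference in response between lines missed the threshold (limma adjusted p = 0.0909). The neighbouring region at +115 kb gave 109, 99.3 and 93.9 after cetuximab and 108 and 99.4 with PBS in SCC1 (log2 change -0.042 ± 0.25 (SE), limma adjusted p = 0.946).

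**Figure D4:**
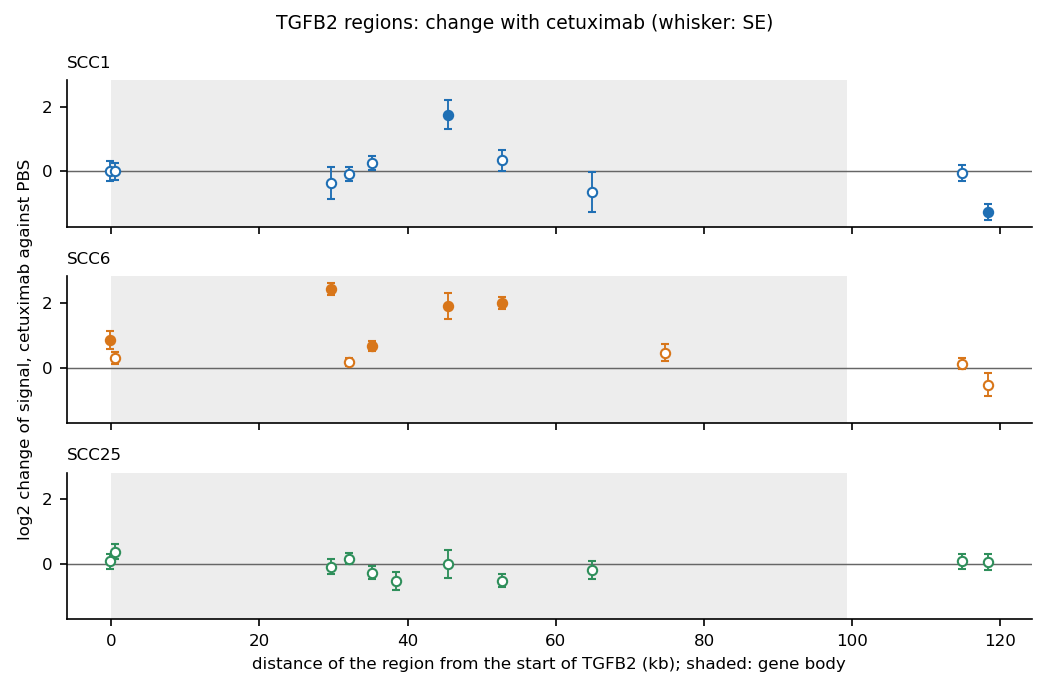
Log2 change of signal with cetuximab (± SE) at the TGFB2 regions by distance from the gene start in kb, in 3 panels for the lines, with the gene body shaded and filled points for a limma adjusted p under 0.05. The SCC6 gains lie at the start and between 29.7 and 52.7 kb, SCC1 has 1 gain at 45.5 kb and 1 loss at 118 kb, and SCC25 has no filled point.

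TGFB2 also differed between untreated lines, in which regions were open more than in how many. All 11 tested regions differed between SCC25 and SCC6, 6 higher and 5 lower in SCC25 (4 and 5 with the GC trend removed, 7 and 1 with peak-free scaling). The intronic region at +38.5 kb (chr1:218556999-218557277) gave 43.3, 47.6 and 43.3 in SCC25 and was near the level of single reads in SCC1 (1.30 and 2.23) and SCC6 (2.42, 0.669 and 1.09). At +74.8 kb (chr1:218593364-218593564, intron) the line was SCC6, with 42.3, 36.8 and 30.5, against 1.30 and 4.47 in SCC1 and 1.13, 2.88 and 0.848 in SCC25. limma adjusted p was 7.79e-09 at the first and 1.68e-07 at the second for SCC25 against SCC6. Reads were 2, 1 and 1 in the SCC6 PBS libraries at the first and 3, 4 and 1 in the SCC25 PBS libraries at the second. The size of both differences thus depends on the pseudocount. The second region is 201 bases wide, one of the SCC6-only regions described with TGFBR2.

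TGFBI, an extracellular matrix protein named for its induction by TGF-beta, lost accessibility in SCC1, upstream of the gene. In SCC1, 2 of 9 regions fell and 0 rose (2 to 3 lower and 0 higher under each other scaling and test). At -11.7 kb (chr5:135352734-135353135) the libraries gave 17.8, 11.7 and 25.04 after cetuximab and 116 and 112 with PBS. Treated libraries were all far below untreated ones, and this was the largest loss among the members (log2 change -2.64 ± 0.38 (SE), limma adjusted p = 7.48e-09, 1.24e-11 to 0.00244 over 15 alternatives). The next region toward the gene, at -8.40 kb (chr5:135356067-135356486), which holds TGAATCA, gave 102, 95.4 and 65.7 after cetuximab and 177 and 179.8 with PBS (log2 change -1.04 ± 0.24 (SE), limma adjusted p = 0.000771). On the far side, at -14.7 kb, the values were 35.5, 40.9 and 35.99 after cetuximab and 72.9 and 71.5 with PBS (log2 change -0.93 ± 0.33), which missed the threshold by a narrow margin (limma adjusted p = 0.0502). All 9 regions had a negative log2 change in SCC1, from -2.64 to -0.073, while the median of all regions was -0.091. On centring, the median of the 9 regions moved from -0.50 to -0.31 and that of all regions to 0.097. The sign of the smallest of these changes thus depends on the scaling.

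These upstream losses differed between lines. At -11.7 kb SCC6 gave 23.2, 58.5 and 38.02 after cetuximab and 53.2, 68.9 and 44.6 with PBS and SCC25 gave 56.2, 37.8 and 33.6 after cetuximab and 62.9, 50.5 and 51.7 with PBS, with overlap in both, and the difference in response passed the test (limma adjusted p = 0.00168, 2.90e-05 to 0.0162 over 27 alternatives). At -8.40 kb it also passed (limma adjusted p = 0.0106), and was lost in 1 of 27 alternatives (adjusted p = 0.000266 to 0.0518 over all). Without SCC1 PBS replicate 3 it was gone (adjusted p = 0.0518). The untreated SCC1 libraries were the most open at both regions (log2 difference -1.34 ± 0.18 (SE), limma adjusted p = 1.66e-05, SCC25 against SCC1 at -8.40 kb). After cetuximab, the SCC1 libraries overlapped the untreated libraries of the other lines at -8.40 kb and lay below all of them at -11.7 kb.

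In SCC6 the called TGFBI changes lay inside the gene. The region over the gene start (chr5:135364442-135364790) was not called. It gave 59.6, 59.4 and 63.8 after cetuximab and 52.0, 48.8 and 44.6 with PBS, each treated library being higher. The intronic region at +3.74 kb (chr5:135368317-135368519) gave 10.1, 12.1 and 14.2 after cetuximab and 20.5, 40.8 and 36.98 with PBS, with all treated libraries lower (log2 change -1.32 ± 0.34 (SE), limma adjusted p = 0.0029, 0.000273 to 0.0454 over 16 alternatives). At an internal start site, +24.7 kb (chr5:135389112-135389670, coding exon), SCC6 gave 117, 115 and 140.2 after cetuximab and 172, 157 and 161 with PBS (log2 change -0.40 ± 0.14 (SE), limma adjusted p = 0.0269), a call lost in 8 of 16 alternatives (adjusted p = 0.00194 to 0.344 over all). The omission of SCC6 cetuximab replicates 1 and 2 and SCC6 PBS replicates 1, 2 and 3 in turn ended it (adjusted p = 0.0542 to 0.11), and so did removal of the GC trend, the block and GC correction together and peak-free scaling. The count of 0 higher and 2 lower became 1 and 1 with the GC trend removed and with peak-free scaling, and 0 and 2 to 3 otherwise. Between untreated lines, 7 of 9 regions were lower in SCC6 than in SCC1 and 0 higher (6 to 9 lower under the others), and 6 were lower in SCC25 than in SCC1 under each scaling and test. The region at +51.7 kb (chr5:135416131-135416533, downstream) was open in SCC1 (103 and 79.3) and SCC25 (94.2, 85.1 and 78.9) and at the level of single reads in SCC6 (1.21, 0.669 and 1.09, limma adjusted p = 3.37e-09 against SCC1).

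SMAD3, the transducer that carries the receptor signal to the nucleus, gained signal at its promoter in SCC1. The region at +1.80 kb (chr15:67357596-67358197, untranslated exon) gave 105, 103 and 111 after cetuximab and 45.5 and 55.8 with PBS. The treated libraries were close together and above both untreated ones (log2 change 1.06 ± 0.27 (SE), limma adjusted p = 0.0033). SCC6 gave 79.8, 91.9 and 91.6 after cetuximab and 95.4, 91.00 and 106 with PBS and SCC25 81.6, 89.2 and 92.1 after cetuximab and 82.9, 92.3 and 96.7 with PBS, with overlapping groups. The difference in response passed the test (limma adjusted p = 0.0024). The call of a gain in SCC1 was lost in 3 of 15 alternatives (adjusted p = 0.000293 to 0.213 over all). Leaving out SCC1 PBS replicate 1 ended it (adjusted p = 0.13), and so did removal of the GC trend and the block and GC correction together. The difference between lines was lost in 2 of 27 alternatives (adjusted p = 0.00032 to 0.172 over all). Those were removal of the GC trend and the block and GC correction together.

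Within the gene, the SCC1 region at +64.4 kb (chr15:67420357-67420568, untranslated exon of a shorter transcript) fell, with 12.7, 17.5 and 6.26 after cetuximab and 27.3 and 43.5 with PBS (log2 change -1.54 ± 0.54 (SE), limma adjusted p = 0.0454), a call lost in 9 of 15 alternatives (adjusted p = 0.0152 to 0.489 over all). Without SCC1 cetuximab replicates 1 and 3 and SCC1 PBS replicates 1 and 3 in turn it was gone (adjusted p = 0.0825 to 0.489), as it was on centring, after quantile normalization, with the GC trend removed, without the filter on low signal and with DESeq2. In SCC6, 3 of 15 regions rose and 0 fell, which became 1 and 1 on centring, 2 and 1 after quantile normalization, 1 and 0 with DESeq2, and 2 to 4 with 0 lower otherwise. The leading one, at +115 kb (chr15:67470965-67471501, intron), gave 113, 134 and 119 after cetuximab and 70.1, 82.97 and 77.2 with PBS, without overlap (log2 change 0.66 ± 0.17 (SE), limma adjusted p = 0.00218, 4.82e-05 to 0.0266 over 16 alternatives). In SCC1 the same region gave 43.2, 21.4 and 18.8 after cetuximab and 13.01 and 5.58 with PBS (log2 change 1.49 ± 0.56 (SE), limma adjusted p = 0.0629). The others were at -14.01 kb (log2 change 0.63 ± 0.20 (SE), limma adjusted p = 0.0132) and at +138 kb (downstream, with 9.09, 21.4 and 17.5 after cetuximab and 1.21, 12.7 and 5.44 with PBS, log2 change 1.47 ± 0.56 (SE), limma adjusted p = 0.0425). The call of the first was lost in 3 of 16 alternatives (adjusted p = 0.000729 to 0.107 over all). The omission of SCC6 PBS replicate 3 ended it (adjusted p = 0.107), and so did centring and DESeq2. The call of the second was lost in 9 of 16 alternatives (adjusted p = 0.0138 to 0.239 over all). Leaving out SCC6 cetuximab replicates 2 and 3 and SCC6 PBS replicates 1 and 3 in turn ended it (adjusted p = 0.0604 to 0.239), and so did centring, quantile normalization, keeping low regions, edgeR and DESeq2. Between lines the response at +115 kb differed (limma adjusted p = 0.0306), a call lost in 8 of 27 alternatives (adjusted p = 0.0067 to 0.143 over all). It did not hold without SCC1 cetuximab replicate 1, SCC1 PBS replicate 3, SCC6 cetuximab replicate 3, SCC25 cetuximab replicates 1 and 3 and SCC25 PBS replicates 1, 2 and 3 in turn (adjusted p = 0.0508 to 0.143).

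Compared with untreated SCC1, 5 of 15 tested SMAD3 regions were higher in SCC6 and 0 lower (12 and 0 with the GC trend removed, 2 and 2 with peak-free scaling), and 8 were higher in SCC25 and 0 lower (7 to 9 higher under the others). At +115 kb the PBS signal was 76.8 ± 6.46 in SCC6, 33.9 ± 1.46 in SCC25 and 9.30 ± 5.25 in SCC1 (log2 difference 3.01 ± 0.32 (SE), limma adjusted p = 7.21e-07, SCC6 against SCC1). The order of SCC25 and SCC6 was not stable, with 4 higher and 2 lower in SCC25, 1 and 7 with the GC trend removed and 12 and 0 with peak-free scaling. An internal start site at +34.8 kb (chr15:67390778-67391035, untranslated exon) was open in SCC25 alone, with 39.6, 27.4 and 28.8 against 2.60 and 1.12 in SCC1 and 1.21, 2.68 and 1.09 in SCC6 (limma adjusted p = 4.83e-08 against SCC6). Reads there were 2 and 1 in the SCC1 PBS libraries and 1, 4 and 1 in those of SCC6, so the size of the difference depends on the pseudocount.

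SMAD7, an inhibitory SMAD that shuts off the receptors and is itself induced by the pathway, rose upstream of its start in both SCC1 and SCC6. At -1.87 kb (chr18:46479081-46479335) SCC6 gave 53.5, 51.99 and 46.6 after cetuximab and 30.2, 26.1 and 25.02 with PBS. Treated libraries lay above untreated ones with little spread (log2 change 0.88 ± 0.26 (SE), limma adjusted p = 0.0079, 0.000165 to 0.0398 over 16 alternatives). In SCC1 it gave 67.3, 33.1 and 32.9 after cetuximab and 2.60 and 32.4 with PBS (log2 change 1.97 ± 0.53 (SE), limma adjusted p = 0.00848). The SCC1 value rested on 1 library. Without SCC1 PBS replicate 1, at 2.60, the log2 change was 0.36. The SCC1 call was lost in 3 of 15 alternatives (adjusted p = 4.88e-05 to 0.795 over all). Without SCC1 cetuximab replicate 1 and SCC1 PBS replicate 1 in turn it was gone (adjusted p = 0.14 to 0.795), as it was with DESeq2. In SCC25 the log2 change was 0.26 ± 0.45 (limma adjusted p = 0.854), and the response was not shown to differ between lines (limma adjusted p = 0.291). The SMAD7 promoter region with the highest signal (chr18:46468952-46469581) was not called for treatment in any line. In SCC6 it gave 60.6, 74.3 and 83.3 after cetuximab and 49.5, 54.2 and 67.4 with PBS.

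The other SMAD7 regions set the untreated lines apart. An intronic region at +2.79 kb (chr18:46474443-46474641) was open in SCC6 alone, with 39.9, 36.1 and 48.9, against 1.30 and 3.35 in SCC1 and 0.754, 1.44 and 0.848 in SCC25 (limma adjusted p = 1.39e-07 and 4.21e-09). It had a peak in all 6 SCC6 libraries and in none of the other lines, and is 199 bases wide, like the SCC6-only regions described with TGFBR2. Reads there were 1 and 3 in the SCC1 PBS libraries and 2, 2 and 1 in those of SCC25, so the size of the difference depends on the pseudocount. At +27.98 kb (chr18:46449241-46449477, intron) the line was SCC25, with 25.6, 25.2 and 24.6 against 5.20 and 3.35 in SCC1 (log2 difference 2.33 ± 0.39 (SE), limma adjusted p = 0.000153). The region with the highest mean, at +13.4 kb (intron), gave 90.7 ± 3.32 in SCC6, 34.1 ± 13.3 in SCC1 and 29.3 ± 4.16 in SCC25, with SCC6 above both others (limma adjusted p = 0.000209 and 1.86e-05) and the difference between the last 2 not past the threshold (0.614).

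SKIL encodes SnoN, a nuclear repressor of SMAD complexes and a target of the pathway. In SCC6, 2 of 4 tested regions rose and 0 fell (1 to 4 higher and 0 lower under the other scalings and tests). The upstream region at -13.3 kb gave 139, 141 and 166 after cetuximab and 62.8, 57.5 and 47.9 with PBS. Treated libraries were all far above untreated ones (log2 change 1.40 ± 0.17 (SE), limma adjusted p = 1.67e-08, 3.05e-11 to 5.94e-06 over 16 alternatives). In SCC1 it gave 135, 132 and 131 after cetuximab and 71.6 and 106 with PBS, also without overlap, and did not pass the test (log2 change 0.60 ± 0.24 (SE), limma adjusted p = 0.0889). None of the 4 tested SKIL regions was called in SCC1, but 2 were higher on centring and 1 each with the GC trend removed and with edgeR. Quantile normalization, peak-free scaling and DESeq2 gave 0. In SCC25 the region at -13.3 kb gave 33.7, 57.96 and 49.6 after cetuximab and 48.2, 42.5 and 30.5 with PBS, with overlap. The difference between lines passed at this region (limma adjusted p = 0.0237), a call lost in 9 of 27 alternatives (adjusted p = 6.05e-05 to 0.0859 over all). The omission of SCC6 cetuximab replicate 3, SCC6 PBS replicate 3, SCC25 cetuximab replicate 1 and SCC25 PBS replicates 1 and 2 in turn ended it (adjusted p = 0.0504 to 0.0788), and so did centring, quantile normalization, removal of the GC trend and the block and GC correction together.

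The SKIL promoter, the member region with the highest mean signal, gave 383, 443 and 441 after cetuximab and 446, 382 and 375 with PBS in SCC6 (chr3:170074481-170075628, log2 change 0.075 ± 0.087 (SE), limma adjusted p = 0.534). A neighbouring region at +1.01 kb (chr3:170075945-170076339) rose, with 147, 147 and 171 after cetuximab and 116, 115 and 102 with PBS (log2 change 0.48 ± 0.14 (SE), limma adjusted p = 0.0102), a call lost in 3 of 16 alternatives (adjusted p = 0.00015 to 0.129 over all). Leaving out SCC6 cetuximab replicate 3 ended it (adjusted p = 0.0529), and so did centring and DESeq2. Untreated SCC1 was higher than untreated SCC25 at 3 of 4 regions and lower at 0 (1 to 4 under the others), for example at the promoter with 493 ± 36.9 against 357 ± 34.7 (log2 difference -0.47 ± 0.11 (SE), limma adjusted p = 0.00169), a difference lost with peak-free scaling and with the block and GC correction together (adjusted p up to 0.281, range 1.53e-05 to 0.281). The intronic region at +22.3 kb had a peak in all 6 SCC6 libraries although its scaled signal there was 1.01, 4.64 and 2.64 after cetuximab and 3.62, 2.01 and 1.09 with PBS, so a called peak and the table's signal did not match at that region, which is 198 bases wide.

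Whether a response differed between lines was asked with an F-test of the line by treatment interaction over all 17 libraries. limma called 17 of 85 tested members, against 13.2% of all regions. TGFB2 had 4 of them, TGFBR3, TGFB1 and SMAD3 had 3 each, TGFBI had 2, TGFBR1 and SKIL had 1 each, and TGFBR2 and SMAD7 had 0. Of these, 6 held in all 27 alternatives, the TGFB2 regions at +52.7 kb and +29.7 kb, the TGFBI region at -11.7 kb, the TGFBR3 regions at +41.9 kb and +5.53 kb and the TGFB1 region at -14.03 kb. With peak-free scaling, 46 members were called. Over all 86315 tested regions that scaling called 30538, against 11388 without it.

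**Figure D5:**
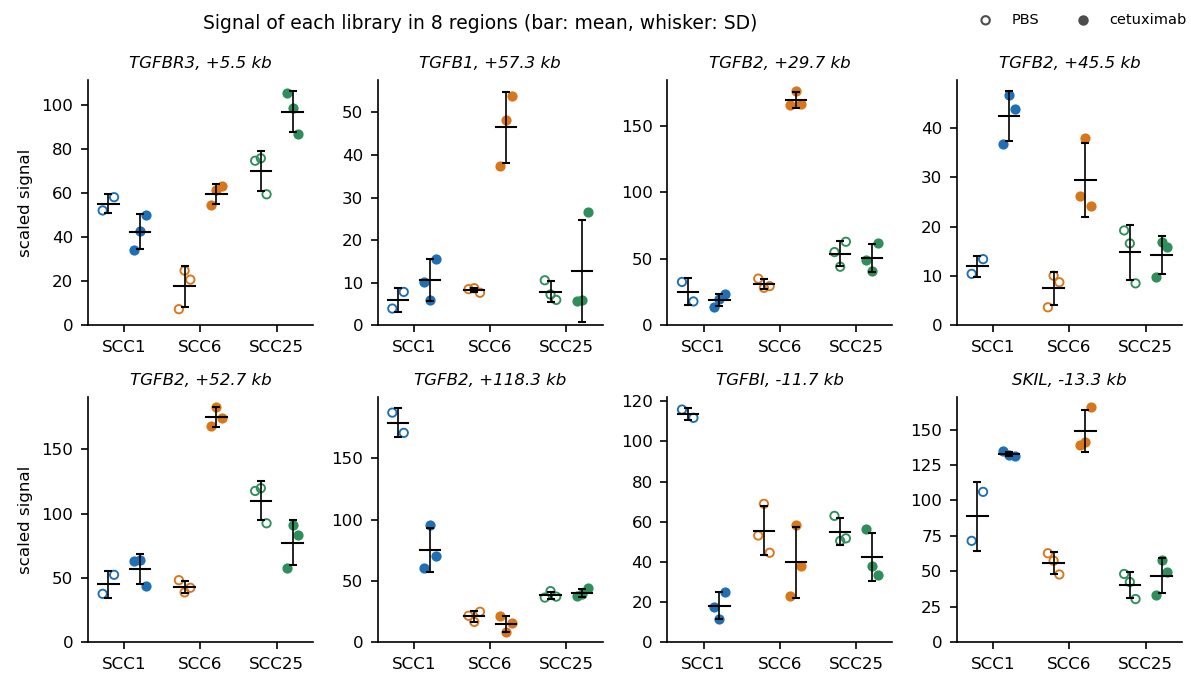
Scaled signal of each library at the 8 member regions with the smallest adjusted p for treatment in a line or for the difference between lines, with open circles for PBS, filled circles for cetuximab, bars for means and whiskers for SD (n = 3, or 2 for SCC1 PBS). SCC6 rises from 30.8 to 169 at TGFB2 +29.7 kb, and SCC1 falls from 114 to 18.2 at TGFBI -11.7 kb.

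Peaks called in single libraries were fewest at the members in SCC1. At least 2 libraries of a line had a peak at 37 member regions in SCC1 (5 libraries), 62 in SCC6 and 59 in SCC25 (6 libraries each), and no library had one at 43, 22 and 17. Whole libraries held 13035 to 36033 peaks in SCC1, 47441 to 101272 in SCC6 and 18642 to 81963 in SCC25. Regions with a peak in at least 2 libraries were not counted over the whole series. The order of lines is thus not shown to be particular to the members. The SCC1 libraries held at most 4171650 reads, and the part of depth in the lower SCC1 count was not tested. All libraries of a line had a peak at 8 member regions in SCC1, 28 in SCC6 and 15 in SCC25.

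The letters of transcription factor sites were searched on both strands in the 200 bases around each region centre. TGANTCA, bound by AP-1, a factor downstream of EGFR and MAP kinase signalling, was in 37 of 90 members (41.1%) and in 26.6% of all regions. It was in 7 of 11 TGFBR2 regions, 9 of 20 at TGFBR3 and 7 of 16 at SMAD3, and in 1 of 6 at SMAD7. CAGACA was in 11 members (12.2%) and in 16.1% of all regions, and GTCTAGAC, the SMAD palindrome, in 0 members and 0.235% of all regions. GCCNNNGGC, the TFAP2 site, was in 13 members (14.4%), 5 of them at TGFB1, and in 8.55% of all regions. Member regions of a gene share its sequence neighbourhood, so they are not independent, and these shares carry no test.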

How the data were processed

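ATAC-seq reads of 17 libraries (SCC1, SCC6 and SCC25, cetuximab or PBS) were trimmed by the authors with Trim Galore 0.5.0, aligned to GRCh37 with Bowtie2 2.3.2, filtered with Picard 2.18 and SAMtools 1.9 and passed to MACS2 for broad peaks in each library (cutoffs and version not given in the sources used here). The deposited region table holds DiffBind's scaled signal, reads in a region times a factor for the library, with empty regions set to 1 read. Division by the smallest value of each library gave whole numbers to within 0.001. The deposited peak lists give fold enrichment as a ratio, -log10 p-values and -log10 q-values, which were used only to ask whether a peak overlapped a region.

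Member regions and gene lists were chosen with earlier results of these data known. Members overlapped a gene body (GENCODE release 44 on GRCh37) or 20 kb on either side, and promoters lay within 1 kb of a start site. Tests used limma 3.58.1 (R 4.3.3) on log2(signal + 1) with trend and robust moderation, on all regions apart from the lowest 25% by mean signal, two-sided, Benjamini-Hochberg adjusted p under 0.05. Treatment was fitted in each line, the interaction over 17 libraries, and lines over the 8 PBS libraries in 1 fit. A log2 change on this scale understates changes of low regions. Alternatives were centring, quantile normalization, a pseudocount of 5, no filter, edgeR 4.0.16 and DESeq2 1.42.0 on recovered reads, each library left out, a replicate block, removal of the GC trend and gene bodies alone. Chosen after seeing the data were peak-free scaling and leaving out regions of 195 to 205 bases. Peak-free scaling used the reads in those of the 115087 regions where no library of the same fit had a peak, so the regions used differed between fits. Fits were tested on simulated data with 200 changed regions in each line. Regions named were the promoter with the highest signal of each gene, the called region with the smallest adjusted p in each direction, line and pair of lines, and the 6 with the smallest interaction p. Every other member called for treatment is given with its value, and further regions singled out were chosen after their values were seen.

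Each sample's group came from its GEO label. SCC1 PBS replicate 2 was not analysed here, and the results for 1 pathway gene and 1 sequence are not reported here. The files hold 2194851 to 15017130 reads in regions per library.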

Additional observations from a re-analysis of the deposited data

Results flagged for a closer look

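At 17 member regions the change with cetuximab differed between the 3 lines by the test of the difference itself (limma F-test of the line by treatment interaction, adjusted over all regions), and these are given here with the log2 change in each line in which the region could be tested. In 6 of them the call was kept in all 27 alternatives. TGFB2 +52.7 kb had an adjusted p of 5.98e-06, with log2 changes of 0.33 in SCC1, 2.00 in SCC6 and -0.52 in SCC25. TGFB2 +29.7 kb had an adjusted p of 1.50e-05, with log2 changes of -0.36 in SCC1, 2.43 in SCC6 and -0.091 in SCC25. TGFBI -11.7 kb had an adjusted p of 0.00168, with log2 changes of -2.64 in SCC1, -0.54 in SCC6 and -0.39 in SCC25. TGFBR3 +41.9 kb had an adjusted p of 0.00173, with log2 changes of -0.30 in SCC1, 1.36 in SCC6 and -0.37 in SCC25. TGFBR3 +5.53 kb had an adjusted p of 0.00234, with log2 changes of -0.38 in SCC1, 1.86 in SCC6 and 0.47 in SCC25. TGFB1 -14.03 kb had an adjusted p of 0.015, with log2 changes of 1.09 in SCC1, 0.68 in SCC6 and -0.62 in SCC25.

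The other 11 lost the call under at least 1 alternative. SMAD3 promoter region at +1.80 kb had an adjusted p of 0.0024, with log2 changes of 1.06 in SCC1, -0.15 in SCC6 and -0.047 in SCC25. Its call was lost in 2 of 27 alternatives, with the GC trend removed and with the block and GC correction together (adjusted p up to 0.172). TGFBI -8.40 kb gave an adjusted p of 0.0106, with log2 changes of -1.04 in SCC1, -0.013 in SCC6 and 0.10 in SCC25. It was lost in 1 of 27 alternatives, that without SCC1 PBS replicate 3 (adjusted p = 0.0518). TGFBR1 +12.2 kb had an adjusted p of 0.0127, with a log2 change of 0.38 in SCC25, the one line in which it was tested. Each SCC1 library held 1 read there, the value set for empty regions, so a change in SCC1 could not be seen. The call was lost in 5 of 27 alternatives, 3 of which left out 1 library (SCC6 cetuximab replicate 3 and SCC6 PBS replicates 1 and 3, adjusted p = 0.0509 to 0.0635).

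TGFB1 +43.7 kb gave an adjusted p of 0.0161, with log2 changes of 0.89 in SCC1, -0.74 in SCC6 and 0.10 in SCC25. Its call was lost in 4 of 27 alternatives, among them that without SCC1 PBS replicate 1 (adjusted p = 0.0812). TGFB1 -10.1 kb had an adjusted p of 0.0181, with log2 changes of 0.92 in SCC1, -0.44 in SCC6 and -0.0013 in SCC25. It was lost in 4 of 27 alternatives, 2 of which left out 1 library (SCC1 cetuximab replicate 1 and SCC1 PBS replicate 3, adjusted p = 0.0577 to 0.15). SKIL -13.3 kb gave an adjusted p of 0.0237, with log2 changes of 0.60 in SCC1, 1.40 in SCC6 and 0.21 in SCC25. The call was lost in 9 of 27 alternatives, 5 of which left out 1 library (SCC6 cetuximab replicate 3, SCC6 PBS replicate 3, SCC25 cetuximab replicate 1 and SCC25 PBS replicates 1 and 2, adjusted p = 0.0504 to 0.0788). TGFB2 +35.2 kb had an adjusted p of 0.0288, with log2 changes of 0.27 in SCC1, 0.67 in SCC6 and -0.27 in SCC25. Its call was lost in 10 of 27 alternatives, 6 of which left out 1 library (SCC6 cetuximab replicate 2, SCC6 PBS replicate 1, SCC25 cetuximab replicates 1 and 2 and SCC25 PBS replicates 1 and 2, adjusted p = 0.0509 to 0.0905).

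SMAD3 +64.4 kb gave an adjusted p of 0.0301, with log2 changes of -1.54 in SCC1, 0.30 in SCC6 and -0.022 in SCC25. It was lost in 7 of 27 alternatives, 4 of which left out 1 library (SCC1 cetuximab replicate 3, SCC1 PBS replicate 3, SCC6 cetuximab replicate 2 and SCC6 PBS replicate 3, adjusted p = 0.0554 to 0.193). SMAD3 +115 kb had an adjusted p of 0.0306, with log2 changes of 1.49 in SCC1, 0.66 in SCC6 and -0.22 in SCC25. The call was lost in 8 of 27 alternatives, each of which left out 1 library (SCC1 cetuximab replicate 1, SCC1 PBS replicate 3, SCC6 cetuximab replicate 3, SCC25 cetuximab replicates 1 and 3 and SCC25 PBS replicates 1, 2 and 3, adjusted p = 0.0508 to 0.143). TGFBR3 +102 kb gave an adjusted p of 0.0371, with log2 changes of 0.67 in SCC1, -0.57 in SCC6 and -0.36 in SCC25. Its call was lost in 17 of 27 alternatives, 13 of which left out 1 library (SCC1 cetuximab replicates 2 and 3, SCC1 PBS replicate 1, SCC6 cetuximab replicates 1 and 3, SCC6 PBS replicates 1 and 2, SCC25 cetuximab replicates 1, 2 and 3 and SCC25 PBS replicates 1, 2 and 3, adjusted p = 0.0502 to 0.425). TGFB2 +45.5 kb had an adjusted p of 0.0402, with log2 changes of 1.75 in SCC1, 1.92 in SCC6 and -0.011 in SCC25. It was lost in 10 of 27 alternatives, 8 of which left out 1 library (SCC1 PBS replicate 1, SCC6 cetuximab replicates 1, 2 and 3, SCC6 PBS replicate 1, SCC25 cetuximab replicate 1 and SCC25 PBS replicates 1 and 2, adjusted p = 0.0537 to 0.127).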

How the results depend on the processing

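Called members kept within 1.5 times the reported count under most settings. In SCC1 (10 called), centring on the median gave 16 and counting regions inside gene bodies alone gave 5. Leaving out 1 library gave 4 to 14, the lowest counts being 4 when SCC1 PBS replicate 1 was dropped and 6 for SCC1 PBS replicate 3. In these fits the lone untreated library is assumed to vary like the treated group. In SCC6 (26 called), gene bodies alone gave 17, and leaving out 1 library gave 20 to 26. In SCC25 (0 called), peak-free scaling, a setting chosen after seeing the data, gave 18, and the same scaling gave 46 for the difference between lines (17 called, 12 to 19 when 1 library was left out). Over all 86315 tested regions, peak-free scaling called 13597 in SCC25 and 30538 for the difference between lines, against 272 and 11388 without it. The cause of these shifts was not tested, apart from the gene body counts, which take in fewer regions. Leaving out the 8 members of 195 to 205 bases, also chosen after seeing the data, left 10, 25, 0 and 17 called members for SCC1, SCC6, SCC25 and the difference between lines.

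Member regions with a peak in at least 2 libraries numbered 37 in SCC1, which fell to 16 when a peak had to cover 50% of the region and to 5 when its -log10 q had to reach 5. With the second requirement the 62 of SCC6 fell to 35 and the 59 of SCC25 to 28.

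Among the named regions the direction turned at 1. The TGFBR1 promoter in SCC6, at a log2 change of -0.26, went to 0.042 with the GC trend removed, with and without the replicate block (adjusted p = 0.831 and 0.816). Calls were kept in all alternatives at 2 of 8 named regions in SCC1, 8 of 11 in SCC6, 6 of 17 for the difference between lines, and 8, 8 and 7 of 9 each for SCC6 against SCC1, SCC25 against SCC1 and SCC25 against SCC6 in PBS libraries.

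The labels do not say that a replicate number marks a shared batch. Deviations from the group mean correlated at -0.0232 to 0.0383 over 8 pairs of libraries with the same number and at -0.0628 to 0.067 over 16 others. Deviations within such small groups balance out by construction, so these values cannot decide whether libraries with the same number shared a batch. With the replicate block, limma called 15 members in SCC1, 27 in SCC6, 0 in SCC25 and 21 for the difference between lines, and 47, 52 and 50 between the PBS groups in the order given above.

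Between PBS groups, 4, 2 and 2 tested members lay at or under 3 reads in every library of 1 group, where a fitted difference depends on the pseudocount. With these at their bound, the median log2 difference of members for SCC25 against SCC1 was 0.29 in place of 0.31.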

Other observations

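Beyond the members, 28 further genes of TGF-beta and BMP signalling held 200 regions. This list was chosen with earlier results of these data known. limma called 12 higher and 9 lower of 172 tested in SCC1, 27 higher and 14 lower of 174 in SCC6, and 0 of 174 in SCC25, where 12 had an unadjusted p under 0.05. Over all regions, 4.57% and 6.56% were called higher and lower in SCC1, and 16.9% and 10.6% in SCC6. In SCC25, 11405 of all 86315 tested regions had an unadjusted p under 0.05. The median log2 change was 0.13 in SCC1 (all regions -0.091) and 0.023 in SCC6 (all regions 0.11). In SCC1, 4 of 6 tested regions at ID3, an inhibitor of helix-loop-helix factors and a target of BMP signalling, were higher and 0 lower. The ID3 region with the smallest adjusted p (chr1:23888862-23889079) gave 107.9, 66.2 and 98.6 after cetuximab and 22.1 and 35.7 with PBS, so that the groups were far apart (log2 change 1.63 ± 0.32, limma adjusted p = 4.24e-05). At LTBP1, which stores latent TGF-beta in the matrix, 0 of 19 tested regions were higher and 3 lower in SCC1. The leading one (chr2:33294869-33295830) gave 143, 158 and 93.9 after cetuximab and 304 and 300.4 with PBS (log2 change -1.23 ± 0.20, limma adjusted p = 1.04e-06).

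In SCC6, genes with at least 3 called regions included LTBP2 (6 higher and 0 lower of 13), ACVR1 (4 and 2 of 14), BMPR2 (3 and 0 of 5), PMEPA1 (3 and 1 of 9), SMAD5 (2 and 1 of 5) and ID1 (0 and 4 of 11). These genes were picked after their values were seen. PMEPA1 encodes a product induced by TGF-beta, which restrains SMAD signalling. Its leading region (chr20:56262351-56262701) fell, with 39.4, 37.1 and 44.6 after cetuximab and 168, 142 and 128 with PBS (log2 change -1.83 ± 0.19, limma adjusted p = 1.51e-10). At the BMP receptor BMPR2 the leading region (chr2:203226785-203227147) gave 90.9, 65.0 and 72.1 after cetuximab and 12.1, 32.6 and 11.4 with PBS (log2 change 2.12 ± 0.30, limma adjusted p = 3.32e-07). At ID1, a target of BMP signalling like ID3, the leading region (chr20:30198393-30198834) went the other way, with 237, 226 and 190.1 after cetuximab and 366, 351 and 367 with PBS (log2 change -0.73 ± 0.10, limma adjusted p = 1.50e-07). All 5 of these leading regions kept their call under each alternative run.

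The width of regions differed by line. Of all 115087 regions, 23156 were 195 to 205 bases wide. Among 14689 regions with a peak in at least 5 SCC6 libraries and in none of the other lines, 11864 had that width. The corresponding counts were 24 of 2445 for SCC25 and, with at least 4 libraries, 13 of 290 for SCC1. Member regions of that width were 2 at TGFBR2, 2 at TGFBR3 and 1 each at TGFB2, TGFBI, SMAD7 and SKIL.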
